A study of Mus musculus with 6 samples.

Results

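A set of 8 genes of neurotrophin and glial growth factor signaling was examined in whole mouse brainstem. They were found by gene symbol in the deposited table of 18058 genes, in which all 8 had a row: the ligands Ntf3, Ptn, Nlgn3 and Pdgfa, and the receptors Ntrk2, Ntrk3, Ngfr and Alk. All 8 averaged 0.1 CPM (gene counts scaled to library size) or more and were among the 16762 genes tested.

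RNA was sequenced from the brainstems of 3 wild-type C57BL/6J mice (WT) and 3 Rag1-/- mice of the B6.129S7-Rag1tm1Mom/J strain, each library from its own mouse. The mice were 1 month of age, carried no transplanted cells and had no other treatment. Mice without Rag1 make no mature T or B lymphocytes, and the study used the comparison to look for host brainstem transcripts that might bear on whether implanted human glioma precursors form tumors. The comparison answers here whether the 8 genes differ between these brainstems. Because the tissue was whole brainstem, fewer cells of a type and less RNA per cell cannot be told apart in any value below.

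Neurotrophins are secreted growth factors that keep neurons alive and shape their branches and synapses. They signal through Trk receptor tyrosine kinases, each with its preferred ligand, and through the shared receptor p75NTR, which binds all of them and their precursors. In glia, related secreted signals (pleiotrophin, platelet-derived growth factor A and the shed form of neuroligin-3) act on precursor cells, and several of them are studied as growth signals for gliomas.

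No difference between the genotypes in these 8 genes passed the test across all genes. Using limma-trend with Benjamini-Hochberg adjustment, 0 of 8 genes had an adjusted p under 0.05, against 0.0477% of all genes tested (8 genes), and the adjusted p-values of the 8 genes ran from 0.402 to 0.816. At an unadjusted p of at most 0.05, Ngfr was the 1 gene that passed, on the lower side, where 9.29% of all genes lay. None of the 8 passed on the higher side, where 2.27% of all genes lay. Ntf3 was the 1 gene whose 3 WT values all lay above the 3 values of the libraries labelled Rag1-/-, as was so for 14.4% of all genes, and none of the 8 lay wholly on the other side, as did 3.98% of all genes. These counts are near what the background gives for 8 genes. The split of that background by direction depended on the scaling: after median-of-ratios rescaling the groups were apart on the lower side for 7.64% of genes and on the higher side for 8.02%.

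Several features of the libraries bear on the values. The deposited steps among low values gave an estimated depth of 34800000 to 46400000 reads in WT and 31600000 to 35100000 reads in the others. Rag1 itself (2:101638252-101649532, mm10) was at 0.236, 0.388 and 0.115 CPM in WT and at 2.60, 4.02 and 2.90 CPM in those labelled Rag1-/-. A gene-level value does not separate the deleted part of the gene from the rest, so it does not check the deletion or the labels. The cause of the higher value in the libraries labelled Rag1-/- was not tested, and the groups are named here by their labels. Xist was at 172 and 177 CPM in WT 1 and WT 2 but at 2.93 in WT 3 and at 0.462 to 0.738 in the libraries labelled Rag1-/-, and the Y-linked Ddx3y was at 45.2 CPM or more in these 4 libraries and at 0.283 or less in WT 1 and WT 2. Sex and genotype are thus partly confounded, since WT 3 was the only WT library with low Xist and high Ddx3y.

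The libraries also differed in marker genes of other tissues and cell types. The 12 markers of cerebellar granule and Purkinje cells summed to 735 CPM in WT 3 and to between 235 and 373 CPM in the other 5, and all 12 were highest in WT 3. The 9 pituitary genes summed to 660 CPM in WT 3, to 57.6 CPM in WT 2 and to between 2.83 and 5.64 CPM elsewhere. The 12 genes of hindbrain position, mostly Hox genes, summed to only 4.88 CPM in the library labelled Rag1-/- 2, against 19.6 to 59.1 CPM in the others. All 12 had a value above 3 reads in every library of either group other than the library labelled Rag1-/- 2, in which the lowest, Hoxa3, was at 0.0951 CPM, the level of 3 reads there. The 10 mature oligodendrocyte genes summed to between 19860 and 23060 CPM in WT and to between 25620 and 26910 CPM in those labelled Rag1-/-. At an unadjusted p of at most 0.05, 8 of these 10 were higher, as were 2.27% of all genes. The part of these differences in the results was not tested.

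**Figure D1:**
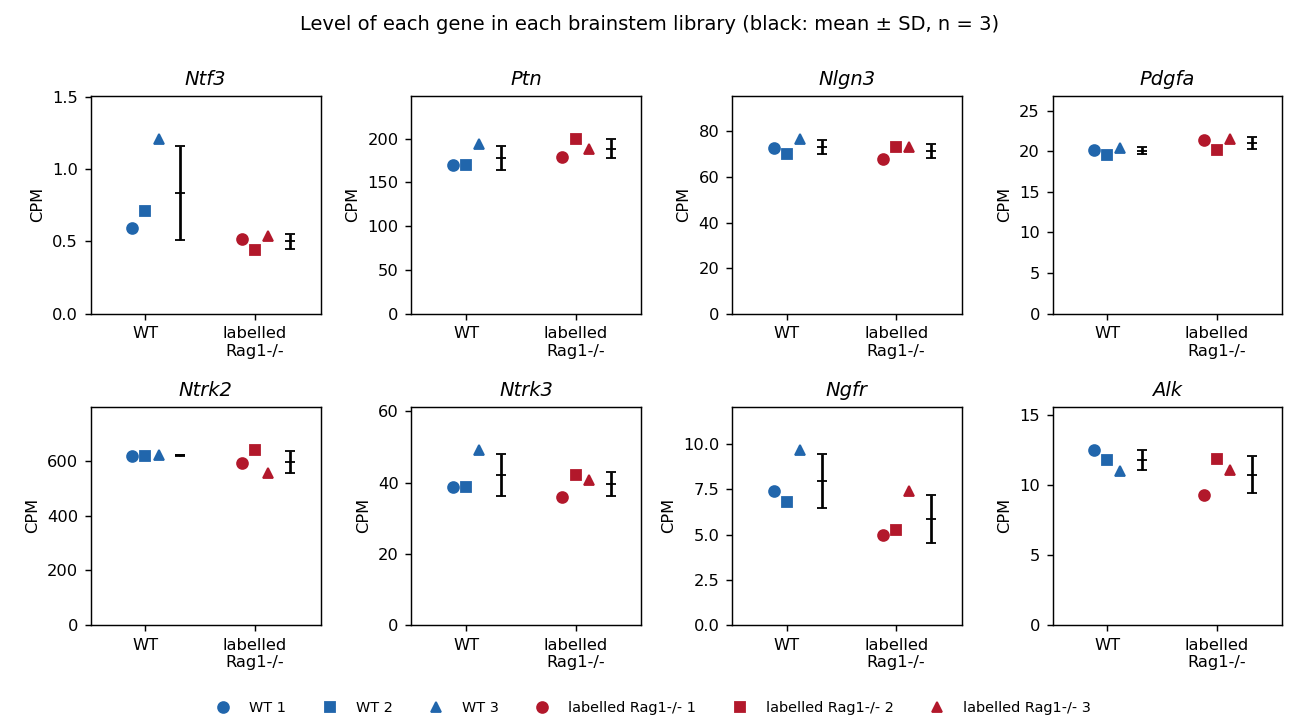
CPM of each of the 8 genes (y axis, from 0) in each library, grouped by label (x axis), with the mean ± SD of 3 libraries in black. Ntf3 was the 1 gene whose groups did not overlap, and WT 3 was the highest library for Ntf3, Nlgn3, Ntrk3 and Ngfr.

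Ntf3 encodes neurotrophin-3, the preferred ligand of TrkC, known for its part in the survival of proprioceptive sensory neurons and in cerebellar development. The gene lies at chr6:126101412-126166744 on the minus strand (mm10). RefSeq gave it 2 start sites. The 250 bases before the one at the deposited 5′ end of the gene are shown because Ntf3 had the largest difference among the 8 genes, and those of Ngfr because it had the next largest. Both are minus-strand RefSeq windows on GRCm38.p6 (the same sequence as mm10), written 5′ to 3′, with capitals marking a GC box (GGGCGG or its reverse complement CCGCCC).
Ntf3, chr6:126166745-126166994: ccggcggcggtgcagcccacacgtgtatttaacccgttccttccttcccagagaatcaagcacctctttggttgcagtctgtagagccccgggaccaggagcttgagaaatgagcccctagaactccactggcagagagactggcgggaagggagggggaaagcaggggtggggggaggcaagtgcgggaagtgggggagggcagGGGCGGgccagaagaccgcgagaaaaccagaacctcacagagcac
Ngfr, chr11:95587699-95587948: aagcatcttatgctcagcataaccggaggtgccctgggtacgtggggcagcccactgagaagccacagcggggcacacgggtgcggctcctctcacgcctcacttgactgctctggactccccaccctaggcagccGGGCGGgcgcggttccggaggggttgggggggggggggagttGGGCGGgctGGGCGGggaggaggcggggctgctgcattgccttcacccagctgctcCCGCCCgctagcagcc
The Ntf3 window held 1 GC box and the Ngfr window 4, and their GC contents were 62.0% and 70.4%. A GC box was present in 32.7% of the 32851 RefSeq windows of the same 250 bases before a start, searched on both strands. Neither window held TATAAA (12.4% of windows, both strands) or CCAAT (33.8%). The window of the other Ntf3 start, 1784 bases inside the gene, held 1 GC box and 1 CCAAT match and had a GC content of 54%. Of the 8 genes, 6 had a RefSeq window, with 8 start sites in all. A match describes the letters and not a site in use.

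In the WT libraries Ntf3 was at 0.590, 0.711 and 1.21 CPM, and in the libraries labelled Rag1-/- it was at 0.520, 0.444 and 0.541 CPM. WT 3 stood highest and the library labelled Rag1-/- 2 lowest, and the groups did not overlap, although WT 1 and the library labelled Rag1-/- 3 lay close together. The WT mean was 0.836 ± 0.327 CPM (SD, n = 3) and the other mean 0.502 ± 0.0513 CPM (n = 3), or 60.0% of WT. On the log2(CPM + 0.1) scale the difference was -0.59 (SE 0.26, 95% interval -1.18 to 0.01, limma p = 0.0537, adjusted p = 0.438), and an exact permutation test (two-sided) gave 0.1, the lowest p that 3 against 3 allows. Of all genes tested, 12.3% had a limma p this small or smaller. Ntf3 was also the least abundant of the 8 genes. Its values correspond to an estimated 25, 33 and 42 reads in WT and 18, 14 and 19 in the libraries labelled Rag1-/-. The exact Poisson 95% intervals, which cover counting error only, were 0.382 to 0.870 CPM for WT 1 and 0.326 to 0.845 CPM for the library labelled Rag1-/- 3, so these nearest libraries of either group could not be separated at this depth. Without WT 3, the library with the high cerebellar and pituitary sums, the difference was -0.32 (limma adjusted p = 0.626). With a term for Xist, which sets the libraries labelled Rag1-/- against WT 3 alone, it was -1.12.

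Ptn encodes pleiotrophin, a heparin-binding growth factor of the developing brain that binds the receptor phosphatase Ptprz1 and has been reported as a ligand of Alk. Its level (chr6:36715663-36811361, minus strand) was 170, 170 and 194 CPM in WT and 178, 199 and 188 CPM in those labelled Rag1-/-. WT 3 lay within the range of the other group, and WT 1 and WT 2 lay below all 3 of it. The means were 178 ± 13.9 and 189 ± 10.4 CPM (SD, n = 3 each), a log2 difference of 0.09 (SE 0.06, 95% interval -0.06 to 0.23, limma adjusted p = 0.609). The interval spans a ratio of 0.960 to 1.17. Without WT 3 the difference was 0.15 with a limma adjusted p of 0.360, while its unadjusted p passed 0.05. With a term for Xist, which sets the libraries labelled Rag1-/- against WT 3 alone, its direction turned, to -0.04.

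Nlgn3 encodes neuroligin-3, a postsynaptic adhesion protein that binds neurexins and can be shed from the cell surface. This X-linked gene (chrX:101299179-101321350, plus strand) was at 72.6, 70.3 and 76.6 CPM in WT and at 67.9, 73.2 and 73.3 CPM in those labelled Rag1-/-. The groups overlapped, and the 6 libraries varied by only 4.09% (coefficient of variation). The log2 difference was -0.03 (SE 0.05, 95% interval -0.15 to 0.08, adjusted p = 0.816), and its sign turned under median-of-ratios rescaling and quantile normalization. Without WT 3 it was -0.00051, and without the library labelled Rag1-/- 1 it was 0.0024.

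Pdgfa encodes platelet-derived growth factor A, the ligand of Pdgfra and a mitogen of oligodendrocyte precursors. It was the steadiest of the 8 genes across the 6 libraries, with a coefficient of variation of 3.65%. Its level (chr5:138976972-138994953, minus strand) was 20.2, 19.5 and 20.4 CPM in WT and 21.3, 20.1 and 21.5 CPM in those labelled Rag1-/-, where libraries 1 and 3 lay above all 3 WT libraries and library 2 among them. The log2 difference was 0.07 (SE 0.05, 95% interval -0.06 to 0.19, adjusted p = 0.659), and 0.11 with either median-of-ratios rescaling or quantile normalization. The 10 markers of oligodendrocyte precursors summed to between 947 and 1003 CPM in WT and to between 1064 and 1095 CPM in those labelled Rag1-/-. At an unadjusted p of at most 0.05, 3 of the 10 (Olig1, Gpr17 and Sox10) were higher, as were 2.27% of all genes. Not all of the list lay on that side: Cspg4 was at 31.9, 33.0 and 30.8 CPM in WT and at 27.0, 29.7 and 30.5 CPM in the others, and the median log2 difference of the 10 was 0.04. The part of these sums in the Pdgfa values was not tested.

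Among the receptors, Ntrk2 encodes TrkB, the receptor of brain-derived neurotrophic factor and neurotrophin-4, which neurons express in full length and astrocytes mostly as a truncated form that lacks the kinase. The gene-level values do not separate these forms. Ntrk2 (chr13:58806569-59133970, plus strand) was at 621, 621 and 624 CPM in WT and at 592, 640 and 558 CPM in those labelled Rag1-/-. The WT libraries lay close together and inside the range of the other group, so the SD was 1.91 CPM in WT and 41.2 CPM in the other group. The log2 difference was -0.06 (SE 0.05, 95% interval -0.19 to 0.06, adjusted p = 0.676). It was -0.11 without the library labelled Rag1-/- 2 and -0.02 without the library labelled Rag1-/- 3. The 10 astrocyte markers summed to between 3392 and 3533 CPM in WT and to between 3573 and 3710 CPM in those labelled Rag1-/-. Slc1a2, the glutamate transporter that makes up the largest share of this sum, was at 1635, 1697 and 1523 CPM in WT and at 1725, 1804 and 1771 CPM in the others, while Gfap was at 317, 374 and 425 against 318, 357 and 349 CPM. The median log2 difference of the 10 markers was 0.02.

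Ntrk3 encodes TrkC, the receptor of neurotrophin-3. Its level (chr7:78192114-78577838, minus strand) was 38.7, 38.7 and 49.03 CPM in WT and 35.9, 42.1 and 40.8 CPM in those labelled Rag1-/-. WT 3 stood above the other 5 libraries, while WT 1 and WT 2 lay inside the range of the libraries labelled Rag1-/-. The log2 difference was -0.08 (SE 0.10, 95% interval -0.31 to 0.14, adjusted p = 0.766). It was 0.03 without WT 3, -0.01 without the library labelled Rag1-/- 1 and -0.02 without both WT 3 and the library labelled Rag1-/- 2. With a term for Xist, which sets the libraries labelled Rag1-/- against WT 3 alone, it was -0.31.

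Ngfr encodes p75NTR, the receptor shared by all neurotrophins. It is best known from basal forebrain cholinergic neurons in the adult brain and from Schwann cells in peripheral nerve. Its level (chr11:95568821-95587698, minus strand) was 7.43, 6.83 and 9.66 CPM in WT and 4.97, 5.26 and 7.40 CPM in those labelled Rag1-/-. WT 3 was again the highest library, and the library labelled Rag1-/- 3 lay between WT 2 and WT 1, so the groups overlapped. The means were 7.97 ± 1.49 and 5.88 ± 1.33 CPM (SD, n = 3 each), the latter 73.7% of the former. The log2 difference was -0.44 (SE 0.17, 95% interval -0.84 to -0.04, limma p = 0.0340, adjusted p = 0.402), and the exact permutation test gave p = 0.2. Of all genes tested, 8.44% had a limma p this small or smaller. Depth was less of a limit here than for Ntf3, with an estimated 315, 317 and 336 reads in WT and 172, 166 and 260 in the libraries labelled Rag1-/-. The unadjusted p was above 0.05 with quantile normalization, without the trend, with the ordinary per-gene variance, and without WT 3, the library labelled Rag1-/- 1 or the library labelled Rag1-/- 2, or without both WT 3 and the last of these. Without WT 3 the difference was -0.30 (limma adjusted p = 0.529). With a term for Xist, which sets the libraries labelled Rag1-/- against WT 3 alone, it was -0.73. The 8 Schwann cell markers summed to 125, 118 and 150 CPM in WT and to 189, 99.5 and 162 CPM in those labelled Rag1-/-. The part of Schwann cells in the Ngfr values was not tested.

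Alk encodes anaplastic lymphoma kinase, a receptor tyrosine kinase of the developing nervous system whose ligands are the Alkal proteins. Its level (chr17:71868988-72604307, minus strand) was 12.5, 11.8 and 11.04 CPM in WT and 9.30, 11.9 and 11.1 CPM in those labelled Rag1-/-. Only the library labelled Rag1-/- 1 lay below all WT libraries, and unlike Ntf3, Ntrk3 and Ngfr, Alk was lowest among WT in WT 3. The log2 difference was -0.14 (SE 0.10, 95% interval -0.36 to 0.09, adjusted p = 0.612). It was -0.03 without the library labelled Rag1-/- 1 and -0.21 without the library labelled Rag1-/- 2.

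As a group, 6 of the 8 genes had a lower mean on the log2 scale in the libraries labelled Rag1-/- and 2 a higher one, where 67.7% of all genes tested were lower. The median log2 difference of the 8 genes was -0.07, and that of all genes tested was -0.05. The median of the 8 genes moved to -0.02 without the library labelled Rag1-/- 1, to -0.12 without the library labelled Rag1-/- 2 and to -0.03 without WT 3. With median-of-ratios rescaling it was -0.03, beside -0.01 for all genes. Of the 8 genes, 4 were highest in WT 3, as were 28.7% of all genes tested. The median coefficient of variation over the 6 libraries was 8.32% for the 8 genes and 7.84% for all genes tested. It was 5.89% for tested genes averaging 5 CPM or more, as all of the 8 but Ntf3 did. Ntf3 (41.6%) and Ngfr (24.7%) were the most variable of the 8.

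**Figure D2:**
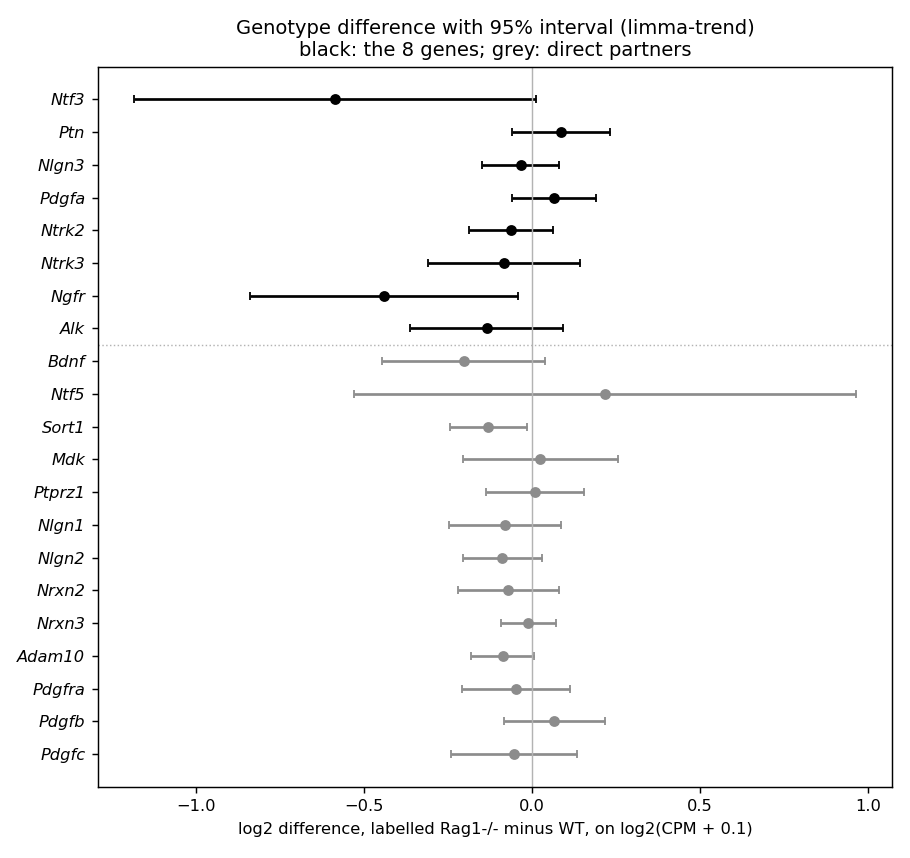
Log2 difference (x axis, libraries labelled Rag1-/- minus WT on log2(CPM + 0.1)) with its 95% limma interval for the 8 genes (black) and 13 of their ligands, receptors, proteases and partners (grey). Ngfr and Sort1 are the rows whose interval lies wholly below 0, and Ntf3 reaches 0.01.

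Levels of the 8 genes could be ordered only per exon length. As CPM per kb of merged GENCODE exons, the WT means were 51.8 for Ptn, 39.3 for Ntrk2, 8.54 for Nlgn3, 6.81 for Pdgfa, 2.31 for Ngfr, 2.16 for Alk, 1.91 for Ntrk3 and 0.488 for Ntf3. Across the 6 libraries Ptn lay between 49.4 and 58.0 and Ntrk2 between 35.2 and 40.4, with no overlap. Nlgn3 (7.92 to 8.94) and Pdgfa (6.64 to 7.30) did not overlap either. The neighbors Ngfr (1.44 to 2.80), Alk (1.71 to 2.29) and Ntrk3 (1.63 to 2.23) were within the spread of the libraries, and Ntf3 lay below all of them at 0.259 to 0.704. The choice of length mattered for genes with several transcripts: per kb of the longest transcript, Ptn and Ntrk2 had means of 69.5 and 71.1 in WT but 73.7 and 68.2 in the other group, and Pdgfa (9.73 in WT) stood above Nlgn3 (8.57).

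**Figure D3:**
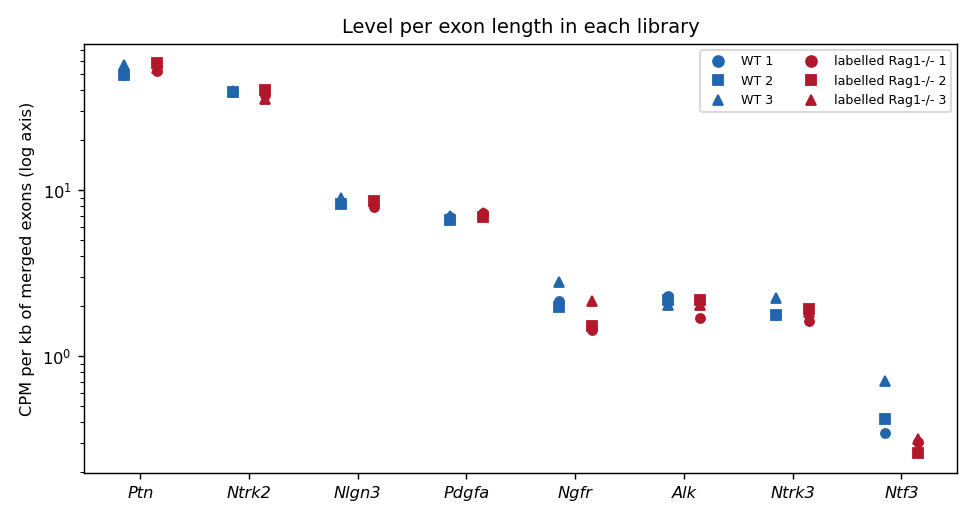
Level of each gene in CPM per kb of merged exons (y axis, log scale) in the 6 libraries. Ptn and Ntrk2 lie highest, Ngfr, Alk and Ntrk3 overlap one another, and Ntf3 lies lowest.

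The other genes of these pathways were examined in 5 lists. Of 84 listed genes 83 had a row and all 83 were tested. None had an adjusted p under 0.05 by limma-trend. At an unadjusted p of at most 0.05, 9 of the 83 were lower in the libraries labelled Rag1-/- (9.29% of all genes tested) and 1 was higher (2.27% of all genes). After median-of-ratios rescaling the split was 3 lower and 4 higher, and after quantile normalization 4 lower and 3 higher. In 12 genes the groups did not overlap on the lower side (14.4% of all genes) and in 2 on the higher side (3.98%). The median log2 difference of the 83 genes was -0.05.

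Among the other neurotrophin ligands, Bdnf, brain-derived neurotrophic factor, was at 16.4, 14.5 and 14.1 CPM in WT and at 11.2, 14.8 and 13.2 CPM in the others (log2 difference -0.20, SE 0.11, limma adjusted p = 0.494), and the groups overlapped. Ntf5, neurotrophin-4, was near the level of 3 reads, at 0.0647 to 0.201 CPM in WT and 0.114 to 0.190 CPM in those labelled Rag1-/-. Neither gene passed the unadjusted threshold. Bdnf lies 8.04 Mb from Rag1 on the same chromosome, and whether strain sequence flanking the Rag1 allele bears on its values was not tested.

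Of the 5 other neurotrophin receptors, 3 had an unadjusted p of at most 0.05 on the lower side (9.29% of all genes). These were of the sortilin family, to which 4 of the 5 listed receptors belong and which binds neurotrophin precursors and sorts receptors within the cell. Sorcs3 was at 24.6, 23.6 and 25.4 CPM in WT and at 20.0, 21.5 and 21.6 CPM in those labelled Rag1-/- (log2 difference -0.22, SE 0.06, limma adjusted p = 0.319), with no overlap. Sort1, sortilin, the co-receptor of p75NTR for neurotrophin precursors, was at 345, 338 and 318 CPM in WT and at 301, 294 and 320 CPM in the others (-0.13, SE 0.05, adjusted p = 0.393), and the groups overlapped. Sorcs2 differed by -0.19 (SE 0.08, adjusted p = 0.409), also with overlap. Sorcs1 (-0.13, SE 0.06, adjusted p = 0.462) had groups that did not overlap, as did 14.4% of all genes on that side.

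Of 13 adaptors of Trk receptors and p75NTR, 2 had an unadjusted p of at most 0.05, both lower (9.29% of all genes) and without overlap (14.4% of all genes on that side). Kidins220, a membrane scaffold of Trk receptors, was at 309, 304 and 304 CPM in WT and at 266, 281 and 274 CPM in those labelled Rag1-/- (log2 difference -0.16, SE 0.04, limma adjusted p = 0.312). Maged1, an X-linked p75NTR-binding protein, was at 432, 426 and 465 CPM in WT and at 401, 414 and 406 CPM in the others (-0.11, SE 0.05, adjusted p = 0.406). Of the 3 proteases, Furin (-0.11, adjusted p = 0.476) and Mmp9 (-0.34, adjusted p = 0.511) can process neurotrophin precursors. Both had groups apart on the lower side (14.4% of all genes) without passing the unadjusted threshold. The other protease, Plat, differed by 0.05 (SE 0.05), with overlap.

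Around pleiotrophin and Alk, 1 of 10 genes with a row passed the unadjusted threshold, on the lower side (9.29% of all genes). This was Lrp1, a large endocytic receptor, at 406, 434 and 484 CPM in WT and 375, 402 and 404 CPM in those labelled Rag1-/- (log2 difference -0.16, SE 0.07, limma adjusted p = 0.415). Its groups did not overlap, as was so for 14.4% of all genes on that side. Mdk, midkine, the close relative of pleiotrophin, was at 16.6, 19.0 and 22.4 CPM in WT and at 20.4, 19.5 and 18.7 CPM in the others (0.02, SE 0.10, 95% interval -0.21 to 0.25), and lies 9.71 Mb from Rag1. Ptprz1 differed by 0.01 (SE 0.06, 95% interval -0.14 to 0.15). Alkal2, a ligand of Alk, was near the level of 3 reads, at 0.0437 to 0.262 CPM in WT and 0.145 to 0.257 CPM in those labelled Rag1-/-.

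None of the 8 partners of neuroligin-3 passed the unadjusted threshold, and all 8 log2 differences lay between -0.09 and -0.01. These included the other neuroligins Nlgn1 (-0.08) and Nlgn2 (-0.09) and the presynaptic partners Nrxn2 (-0.07) and Nrxn3 (-0.01), whose adjusted p-values ran from 0.524 to 0.926. Adam10, the protease that sheds neuroligin-3, was at 60.1, 59.9 and 57.3 CPM in WT and at 55.3, 56.2 and 55.4 CPM in those labelled Rag1-/- (-0.09, SE 0.04, limma adjusted p = 0.460). It was the 1 gene of this list of 8 whose groups did not overlap, beside 14.4% of all genes on that side.

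None of the 6 other platelet-derived growth factor genes passed either. Pdgfra, the receptor of Pdgfa and a marker of oligodendrocyte precursors, was at 62.1, 73.6 and 65.4 CPM in WT and at 60.8, 68.7 and 64.8 CPM in those labelled Rag1-/- (log2 difference -0.05, SE 0.07, 95% interval -0.21 to 0.11). The ligands Pdgfb (0.07, SE 0.07) and Pdgfc (-0.05, SE 0.08) had adjusted limma p-values of 0.714 and 0.821.

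Of 35 other glial growth factors and receptors, 3 were lower (9.29% of all genes) and 1 was higher (2.27%) at an unadjusted p of at most 0.05. The groups were apart on the lower side in 4 of the 35 (14.4% of all genes) and on the higher side in 2 (3.98%). Il6st, the gp130 receptor chain of the ciliary neurotrophic factor family, was at 129, 130 and 128 CPM in WT and at 116, 119 and 116 CPM in those labelled Rag1-/- (log2 difference -0.14, SE 0.04, limma adjusted p = 0.319). Nrtn, neurturin, a ligand of the Ret receptor complex, was at 5.50, 6.05 and 5.81 CPM in WT and at 7.60, 6.72 and 7.37 CPM in the others (0.32, SE 0.09, adjusted p = 0.340). In both genes the groups did not overlap, as was also so for Igf1r, the receptor of insulin-like growth factor 1 (-0.17, SE 0.06, adjusted p = 0.373), and for Fgf2, fibroblast growth factor 2, which was at 0.826, 1.16 and 1.04 CPM in WT and 0.809, 0.697 and 0.484 CPM in those labelled Rag1-/- (-0.55, SE 0.23, adjusted p = 0.415). Hbegf, heparin-binding EGF-like growth factor, was at 14.1, 14.5 and 14.1 CPM in WT and at 15.2, 16.0 and 15.6 CPM in the others (0.13, SE 0.06, adjusted p = 0.438), with no overlap, and did not pass the unadjusted threshold.

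**Figure D4:**
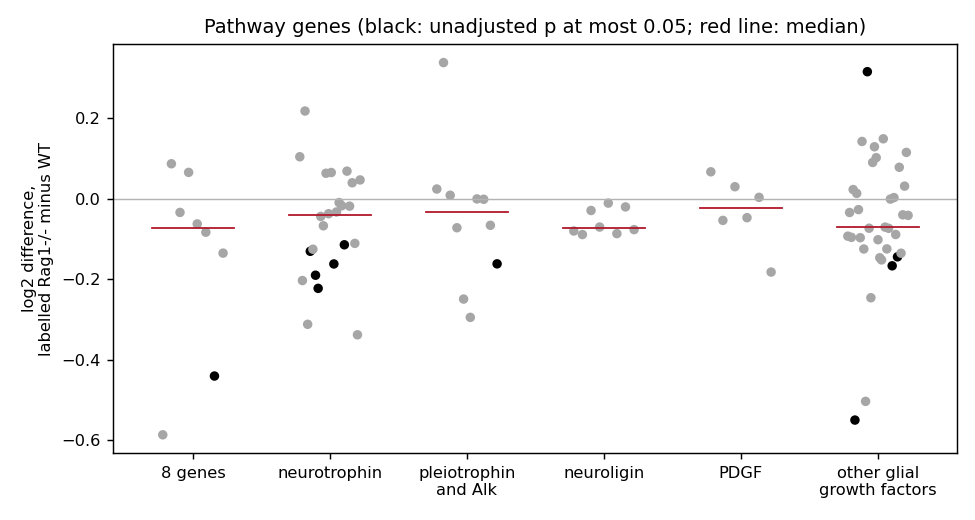
Log2 difference (y axis, libraries labelled Rag1-/- minus WT) of the 8 genes and of the genes of the 5 lists (x axis), 1 point a gene, black where the unadjusted limma p was at most 0.05, with the median of each list in red. Most points lie within 0.2 of 0, and Ntf3, Fgf2, Gdnf and Ngfr are the lowest points.

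Among pairs of the 8 genes, Nlgn3 and Ntrk3 had the most alike levels over the 6 libraries (Pearson r = 0.93 on the log2 scale), followed by Ntf3 and Ngfr (r = 0.83), while Pdgfa and Ntrk2 ran most opposite (r = -0.82). These are descriptions over 6 libraries, of which WT 3 and the library labelled Rag1-/- 2 stood apart in the marker sums. For each of the 8 genes, the most similar of the 14033 genes averaging 1 CPM or more were found in the same way. For Ntf3 they were Myo1c (r = 0.996), Gadd45g (0.995) and Urgcp (0.993), all highest in WT 3 and lowest in the library labelled Rag1-/- 2, and for Ngfr they were Adora2a (0.997), Alpk2 (0.997) and Pi4kb (0.995). For Ntrk3 they were Klhl34, Gpc6 and Triobp (0.990 to 0.995), all highest in WT 3. For Nlgn3 they were Vstm2l, Nkd2 and Cbfa2t3 (0.988 to 0.994), for Alk they were Mrpl37, Rnf185 and Acvr2a (0.986 to 0.988), and for Ptn they were Fut8, Cnksr3 and Arpc2 (0.986 to 0.996). For Ntrk2 they were Mettl25, 4930453N24Rik and Gon7 (0.983 to 0.995), and for Pdgfa they were Malsu1, Tmem86a and 9330133O14Rik (0.953 to 0.974). In all, 121 genes exceeded an r of 0.95 with Ntf3, 109 with Ntrk3, 86 with Ngfr and 63 with Alk. The number was 43 for Nlgn3, 24 for Ntrk2, 11 for Ptn and 4 for Pdgfa. With 14033 genes searched over 6 libraries, values of r this high can arise without any link between the genes.

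Ntf3, Ngfr, Ntrk3 and Nlgn3 were set beside the marker sums because all of them were highest in WT 3. In that library the cerebellar sum was 2.97 times, and the hippocampal and cortical sum 1.48 times, the median of the other 5 libraries. The 11 genes of bone and marrow summed to 10.3, 14.8 and 22.2 CPM in WT and to 3.81, 4.72 and 7.57 CPM in those labelled Rag1-/-. At an unadjusted p of at most 0.05, 8 of the 10 tested were lower, as were 9.29% of all genes. The 8 choroid plexus genes summed to 980, 1237 and 489 CPM in WT and to 555, 634 and 591 CPM in those labelled Rag1-/-, so that WT 3 was the lowest library for them. The part of these sums in the values of these 4 genes was not tested, and leaving out their highest library has to lower their WT mean.

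**Figure D5:**
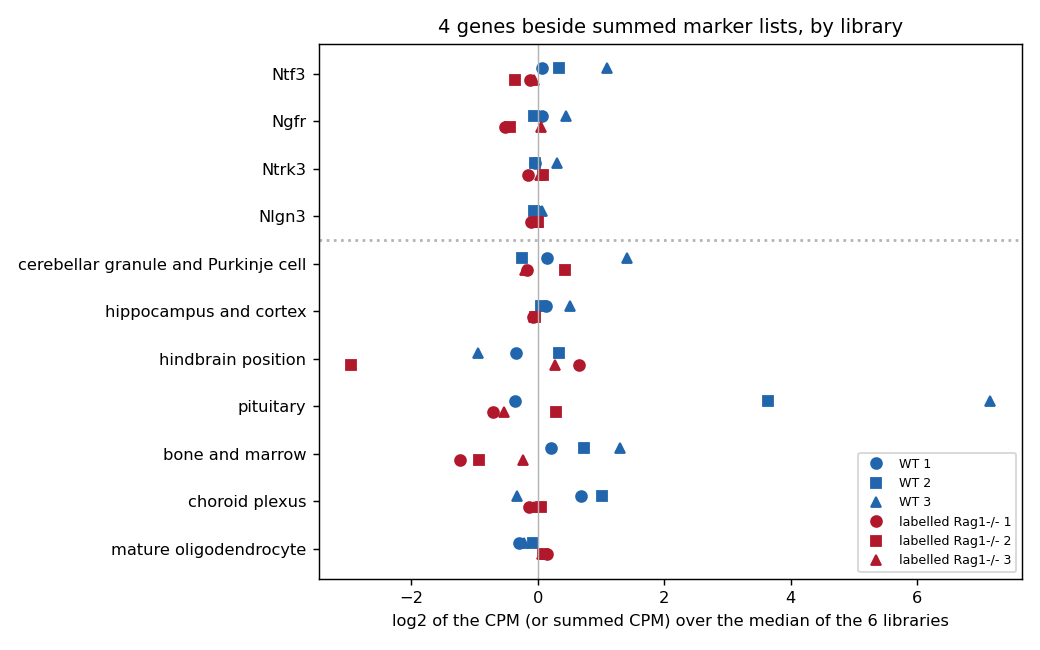
Log2 of the CPM of Ntf3, Ngfr, Ntrk3 and Nlgn3 (above the dotted line) and of the summed CPM of 7 marker lists (below it), over the median of the 6 libraries (x axis), 1 point a library. WT 3 is the highest library for the 4 genes and for the cerebellar, hippocampal and cortical, pituitary, and bone and marrow sums, and the library labelled Rag1-/- 2 is the lowest for the hindbrain sum.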

How the data were processed

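The authors isolated total RNA from snap-frozen brainstem, sequenced it on an Illumina HiSeq, aligned the reads to mm10 with STAR 2.5.3a and counted RefSeq genes in Partek Flow. They deposited 1 CPM value per gene and library, with 0.0001 added to each. Spacing of the low values gave an estimate of what 1 read is worth, and 86.6% to 87.8% of those values were whole to within 0.1 read. Reads were therefore not recovered, no count test was run and depths are estimates. The level of 3 reads lay between 0.0647 and 0.0952 CPM.

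From these deposited CPM values, log2(CPM + 0.1) was computed. The 16762 genes averaging 0.1 CPM or more were fitted with limma-trend (limma 3.58.1, R 4.3.3) for libraries labelled Rag1-/- minus WT, two-sided, with Benjamini-Hochberg adjustment over all of them, and 1296 genes were not tested. The adjusted threshold was 0.05. The pseudocount and filter are choices made here. An exact permutation test was also run for each of the 8 genes. The fit was tested on simulated data.

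The 8 genes, the pathway lists and the marker lists were chosen with earlier results of these data known. Named were all 8 genes, the pathway genes at an unadjusted p up to 0.05 or with groups apart (at most the 12 with the smallest p), direct partners whatever their values (some are not reported here), and the 3 genes most like each of the 8. Alkal2, Furin, Mmp9, Plat, Sorcs1, Gdnf and single genes of the marker lists were named after their values were seen where they fell outside this rule. Replicates are separate mice. Exon lengths are from GENCODE M21 and promoter windows from RefSeq on GRCm38.p6. Alternatives were other pseudocounts, filters, scalings and variance models, a replicate block, a term for Xist, and leaving out each library.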

Additional observations from a re-analysis of the deposited data

How the results depend on the processing

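With 3 libraries a group and a partly confounded sex, these data limit what can be said of each gene to its interval. In 17 alternatives none of the 8 genes had an adjusted p under 0.05 (limma-trend as reported also gave 0, with 1 at an unadjusted p of at most 0.05). Over all genes there were 8 such calls as reported, 0 with the ordinary per-gene variance and 24 without WT 3. With the term for Xist the libraries labelled Rag1-/- are set against WT 3 alone, so its counts of genes are not given. The log2 differences of Alk, Ngfr, Ntrk2 and Pdgfa kept their sign in all 17, though not their size: with 1 library left out Alk ran from -0.21 to -0.0346, Ntrk2 from -0.114 to -0.0151 and Pdgfa from 0.0469 to 0.0943. Pdgfa was 0.108 with median-of-ratios rescaling and 0.113 with quantile normalization. That of Ntf3 did so in the 16 in which it was tested, between -1.12 and -0.25, with adjusted p from 0.115 to 0.760, and was not tested with a mean of at least 1 CPM. That of Ngfr ran from -0.73 to -0.23, with adjusted p from 0.150 to 0.768.

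Nlgn3 turned to 0.0082 with median-of-ratios rescaling and to 0.0111 with quantile normalization and ran from -0.0621 to 0.0024 with 1 library left out. Ntrk3 ran from -0.141 to 0.0305 with 1 library left out and was -0.311 with the Xist term. Ptn ran from 0.0468 to 0.151 with 1 library left out and turned to -0.0411 with the Xist term, which among low-Xist libraries rests on WT 3 alone. The cause was not tested.

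The number of the 8 genes with groups apart (1) was 0 with a mean of at least 1 CPM, since Ntf3 was then not tested, and 2 with median-of-ratios rescaling (Ntf3 and Pdgfa). It was 1 to 3 with 1 library left out, where 25.1% to 31.0% of all genes were apart (18.4% as reported), and 5 without both WT 3 and the library labelled Rag1-/- 2, an alternative chosen after seeing the data, where 44.3% of all genes were apart. The number with an unadjusted p of at most 0.05 was 1 as reported, where 11.6% of all genes lay at that p. It was 0 with quantile normalization, without the trend and with the ordinary variance, and 0 to 2 with 1 library left out. It was 0 without the library labelled Rag1-/- 1 or 2 (6.63% and 10.3% of all genes), 2 without WT 1 (8.79%), and without WT 3 (11.6%) the 1 gene was Ptn. The number of other pathway genes at that p (10) was 6 to 11 with 1 library left out, 6 being without the library labelled Rag1-/- 1.

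The median log2 difference of the 8 genes ran from -0.1215 to -0.02435 over the 17 alternatives.

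Same-numbered libraries did not deviate together (r = 0.0926, -0.220 and -0.0183). These correlations gave no sign that the numbers pair libraries, but with so few libraries they cannot exclude a shared batch. With a replicate block, 6 other pathway genes and 1 of the 8 (Ngfr, limma adjusted p = 0.555) were at an unadjusted p of at most 0.05 (8.10% of all genes), and 3 genes of all tested had an adjusted p under 0.05.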
